A study of Mus musculus with 2 samples.

Results

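Nucleoporins are the proteins that build the nuclear pore complex, the channel through which RNA, proteins and ribosomal particles cross the nuclear envelope. The pore is assembled from stacked rings: outer rings made of the Y complex, an inner ring that lines the membrane, and a membrane ring that anchors both. Phenylalanine-glycine (FG) repeats of the channel nucleoporins form the selective barrier, filaments on the cytoplasmic face release exported mRNA, and a basket on the nuclear face receives it. Oocytes of many animals also hold pore complexes outside the nucleus, in stacked cytoplasmic membranes called annulate lamellae.

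The genes described here were chosen by symbol, not by any measured value. They are the genes named Nup followed by a number, with Ranbp2, Tpr, Seh1l, Sec13, Aaas, Ndc1, Pom121, Rae1 and Ahctf1 added by name, and 28 of the 53832 genes in the table met this rule. All 28 are annotated as protein-coding, and they lie on 12 chromosomes. Under the symbols of this table, the FG nucleoporins Nup58 and Nup42 are listed as Nupl1 and Nupl2, so the rule did not take them, and they are described after the members.

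The data were poly(A) RNA-seq values of sorted mouse oocytes, in 1 group of 2 libraries, replicates 1 and 2. Ovaries of female mouse embryos were cultured under 33.3 kPa of external pressure, and cells carrying a CFP reporter of Stella (Dppa3), a germ cell gene, were then sorted by flow cytometry. The labels call the cells small oocytes and give no strain, age, culture time or number of animals. Both libraries were pressure-treated, so no effect of pressure could be measured. Nothing in the labels says whether separate cultures or animals were used, so SDs describe only how these 2 libraries spread, which may be technical. Counting SEs and p-values of the exact binomial test allow for counting noise only.

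The libraries held 5019462 and 5274338 expected counts. All 8 germ cell and oocyte markers examined, from Sycp3 and Ybx2, the highest, to Dazl and Ddx4, the lowest, were expressed, and they held 0.471% of the counts in replicate 1 (exact Clopper-Pearson 95% interval 0.465 to 0.477%) and 0.473% in replicate 2 (0.468 to 0.479%). The 26 markers of granulosa, stromal, epithelial, endothelial, leukocyte and erythroid cells summed to 149 and 118 counts. Of these, 6 reached a TPM of 1 in both libraries: Nr0b1, Col1a1, Dcn, Krt8, Hbb-bs and Pecam1, the last with 36 and 25 counts. Fshr, Tcf21, Emcn, Esam, Ptprc, Adgre1, Tyrobp, Hbb-y and Slc4a1 had a count of 0 in both. Over 12182 genes kept for testing, log2 CPM of the libraries correlated with a Pearson's r of 0.989, across genes, which are not replicates.

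Every nucleoporin gene taken by the rule was present in the oocyte RNA. In bulk RNA of this kind, a level set by fewer expressing cells and one set by less RNA per cell cannot be told apart. Levels are given as TPM, the expected count divided by the length of the gene's merged exons and scaled to a fixed library sum, so that genes can be compared with each other. All 28 genes reached a TPM of 1 in both libraries, against 53.5% of protein-coding genes, and all 28 also reached a TPM of 5. Their median TPM was 57.6 in replicate 1 and 49.0 in replicate 2, against 24.2 for the mean of both libraries over the 11617 expressed protein-coding genes. By mean TPM, 22 members stood above that value and 6 below it. The members were counted 16009 and 16877 times, which is 0.319% of replicate 1 (exact 95% interval 0.314 to 0.324%) and 0.320% of replicate 2 (0.315 to 0.325%), and intervals of this kind cover counting error only.

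The levels spanned a 16.1-fold range of mean TPM, from Aaas at 168 ± 0.769 (SD, n = 2) to Nup155 at 10.4 ± 0.416 (SD, n = 2). A TPM above 100 was found for 7 of 28 genes (Aaas, Nup62, Seh1l, Nup93, Ndc1, Rae1 and Nup107), and a TPM below 30 for 7 (Nup35, Nup205, Nup160, Nup98, Nup210, Ahctf1 and Nup155). The order was nearly the same in both libraries, with a Spearman's rho of 0.987 across the 28 genes. Of the 27 pairs of neighbours in the order of mean TPM, 17 had library values that overlapped, so their order is not resolved, and 10 did not.

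**Figure D1:**
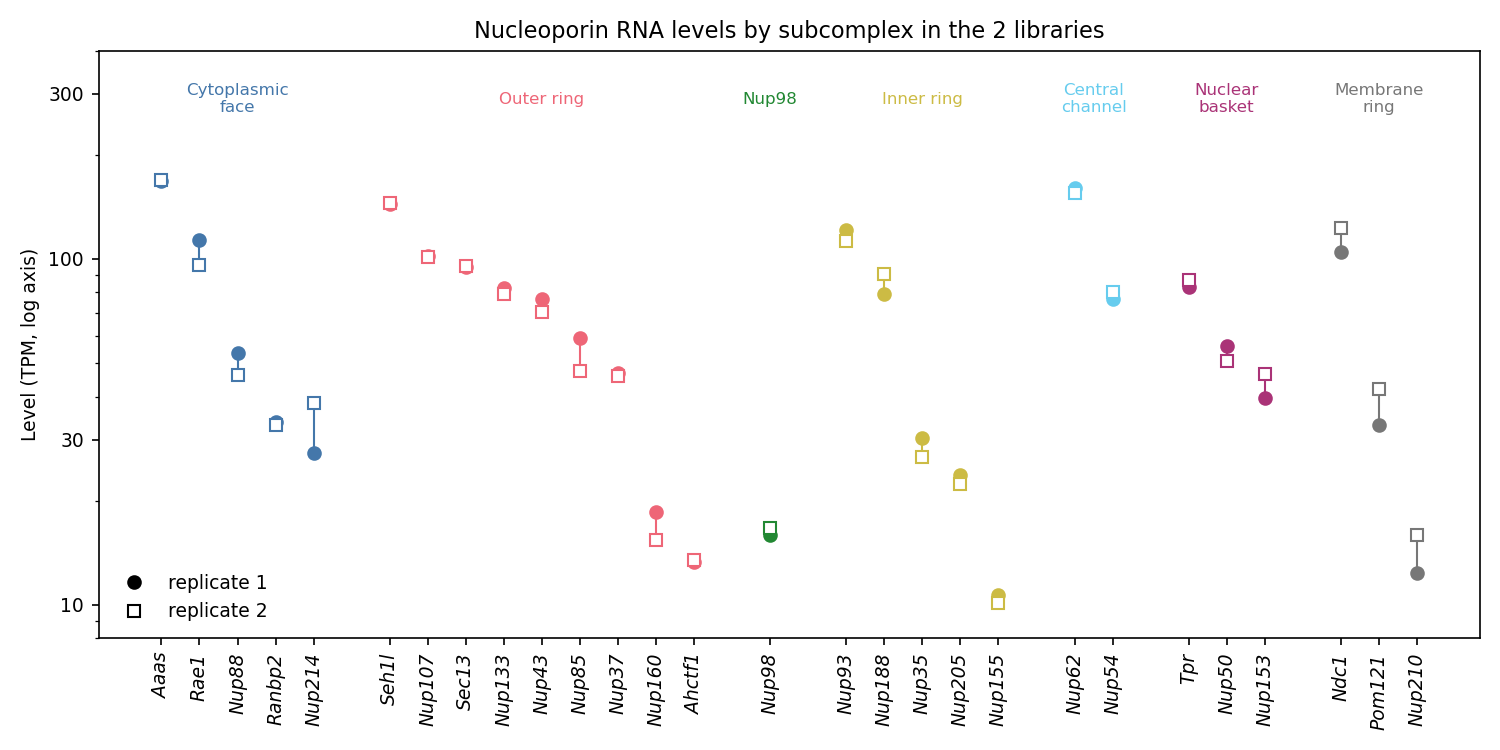
Level of each nucleoporin gene in TPM (log axis) in replicate 1 (filled circles) and replicate 2 (open squares), grouped by subcomplex and joined by a line per gene. Aaas, Nup62 and Seh1l are the highest genes, and Nup155, Ahctf1, Nup210, Nup98 and Nup160 lie below a TPM of 19 in both libraries.

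The promoters of the highest and of the lowest gene, with those of Nup62, Nup107 and Nup50, are printed because these genes stand at the ends of this range or are the 3 members that hold the NRF1 string searched for. Each runs from 250 bases before to 50 bases after the RefSeq start on GRCm38.p6, 5′ to 3′ on the gene's strand, and the capitals mark matches to the motif letters listed in the next paragraph. The Aaas promoter (chr15:102350710-102351009, minus strand) holds an ETS match, the Nup62 promoter (chr7:44815838-44816137, plus strand) holds an NRF1 match and CCAAT boxes, the Nup107 promoter (chr10:117792656-117792955, minus strand) holds NRF1 and ETS matches, the Nup50 promoter (chr15:84923178-84923477, plus strand) holds NRF1, CCAAT and YY1 matches, and the Nup155 promoter (chr15:8109063-8109362, plus strand) holds an ETS match and a CCAAT box.
Aaas: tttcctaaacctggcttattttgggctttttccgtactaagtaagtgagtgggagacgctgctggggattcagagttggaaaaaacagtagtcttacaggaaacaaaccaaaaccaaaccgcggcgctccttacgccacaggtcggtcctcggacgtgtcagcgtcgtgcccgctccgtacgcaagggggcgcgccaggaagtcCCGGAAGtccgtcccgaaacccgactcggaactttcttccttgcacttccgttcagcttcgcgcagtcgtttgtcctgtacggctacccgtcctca
Nup62: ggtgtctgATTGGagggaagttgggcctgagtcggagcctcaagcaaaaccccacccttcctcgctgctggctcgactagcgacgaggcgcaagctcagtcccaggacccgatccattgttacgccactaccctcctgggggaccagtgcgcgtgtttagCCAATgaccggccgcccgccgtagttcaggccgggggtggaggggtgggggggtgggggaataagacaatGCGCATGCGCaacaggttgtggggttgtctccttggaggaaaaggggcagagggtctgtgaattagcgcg
Nup107: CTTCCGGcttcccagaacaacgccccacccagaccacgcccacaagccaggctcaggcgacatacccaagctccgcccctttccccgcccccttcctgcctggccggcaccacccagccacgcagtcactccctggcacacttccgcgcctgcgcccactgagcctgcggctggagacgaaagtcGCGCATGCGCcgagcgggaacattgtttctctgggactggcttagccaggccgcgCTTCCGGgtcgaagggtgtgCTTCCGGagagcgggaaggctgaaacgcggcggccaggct
Nup50: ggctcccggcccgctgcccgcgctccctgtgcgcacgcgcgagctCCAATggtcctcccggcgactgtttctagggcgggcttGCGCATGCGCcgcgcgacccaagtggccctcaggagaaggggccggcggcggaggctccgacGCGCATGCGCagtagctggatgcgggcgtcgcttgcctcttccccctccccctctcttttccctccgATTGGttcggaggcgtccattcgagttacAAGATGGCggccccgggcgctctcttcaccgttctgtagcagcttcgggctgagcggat
Nup155: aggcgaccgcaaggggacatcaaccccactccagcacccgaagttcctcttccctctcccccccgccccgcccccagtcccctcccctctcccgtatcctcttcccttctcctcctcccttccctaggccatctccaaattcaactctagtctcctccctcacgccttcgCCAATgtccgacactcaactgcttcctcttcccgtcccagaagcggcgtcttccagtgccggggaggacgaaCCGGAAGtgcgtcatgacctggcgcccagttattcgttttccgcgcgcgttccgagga

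RefSeq promoters were at hand for 24 of the 28 genes, 3 of them with 2 starts, and each was searched on both strands for 6 strings of letters. The NRF1 string GCGCATGCG was found in 3 of 24 (12.5%), against 4.55% of 9313 expressed protein-coding genes and 1.75% of all 32851 promoters in the table. For each string, shares of members and expressed genes count a gene with a match in any of its promoters. The share of all promoters counts single promoters, so it is not a like measure. The ETS string CCGGAAG was found in 7 (29.2%, against 21.6% and 8.86%), the YY1 string AAGATGGC in 4 (16.7%, against 5.56% and 2.75%) and CCAAT in 9 (37.5%, against 43.9% and 37.4%). TATAAA was found in 3 (12.5%, against 8.07% and 13.6%), and TAATTG, a string bound by the oocyte factor NOBOX, in 0, against 5.89% and 8.0%. Matches to different strings shared no bases in these promoters, 6 of the 24 genes held none of the strings, and the high Aaas and the low Nup155 promoter both held CCGGAAG. A match is a description of the letters and not a bound site. The 27 promoter windows held a median of 28 CpG dinucleotides, from 3 to 45, against a median of 21 in expressed protein-coding genes and 7 in all promoters.

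The outer ring was present in all of its 9 genes, at a median TPM of 76.7 in replicate 1 and 70.1 in replicate 2, but its members differed up to 10.8-fold. Seh1l (ENSMUSG00000079614, chromosome 18, 67774876 to 67795487), a propeller protein that also serves in the GATOR complex of nutrient sensing, stood at a TPM of 144 and 145. Sec13, which has a second role in the coat of secretory vesicles, stood at 95.1 and 95.6. With the length of its longest transcript its mean TPM was 148, rank 2 in place of 8. That transcript is annotated with 1 exon of 1599 bases, so its length may not be that of the spliced mRNA. The Y-complex stem protein Nup107 stood at 102 in each library, and Nup133 at its end stood at 82.4 and 79.4. Each of these 4 genes had nearly the same level in both libraries.

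The remaining outer ring genes were lower with merged exons as the length. With the longest transcript, Nup43 at a mean TPM of 84.4 and Nup37 at 83.1 stood above Nup133 at 76.4. Nup43, a small propeller protein, stood at a TPM of 76.7 and 70.1, Nup85, the partner of Seh1l, at 59.2 and 47.4, and Nup37, which docks on Nup160, at 46.8 and 45.9. With the length of its longest transcript, which is annotated with 1 exon of 1448 bases, the mean TPM of Nup37 was 83.1, against 46.3. Nup160 (ENSMUSG00000051329, chromosome 2, 90677215 to 90736328), a large scaffold protein of the same complex, stood at only 18.5 and 15.4. Ahctf1, also called Elys, the chromatin-binding protein that starts pore assembly after mitosis, stood at 13.3 and 13.5. The TPM of Nup107 was 5.52 and 6.60 times that of Nup160, and the TPM of Seh1l was 2.44 and 3.05 times that of Nup85, although these proteins sit in the same complex. With the length of the longest transcript in place of the merged exons the mean ratios were 4.86 and 2.11.

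Nup98 encodes a precursor that is cut into the FG protein Nup98 and the outer ring protein Nup96. It stood at a TPM of 15.9 and 16.6, rank 25 of 28. Rae1, an mRNA export factor that binds the Nup98 protein, stood at 113 and 96.2, so that the Nup98 TPM was 0.140 and 0.173 times that of Rae1. The mean ratio was 0.201 with the longest transcripts as length, against 0.157. Nup98 has the second longest merged exons of the members, 12602 bases against 6694 for its longest transcript, and with the latter length its mean TPM was 23.9. Its transcripts match other genes at 95% identity or more only over stretches of at most 195 bases.

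The inner ring was as uneven as the outer ring, with 11.3-fold and 11.1-fold between its highest and lowest gene in the 2 libraries and a median TPM of 30.3 and 26.8. Nup93, the linker that holds the ring together, led it with a TPM of 121 and 113. Nup188 and Nup205 are large paralogous scaffold proteins that each bind Nup93. Nup188 stood at 78.9 and 90.2 and Nup205 at 23.7 and 22.3, so Nup188 had 3.33 and 4.04 times the TPM of its paralogue. With the longest transcripts as length the mean ratio was 2.77, against 3.68.

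Nup155 (ENSMUSG00000022142, chromosome 15, 8109273 to 8161247), which ties the inner ring to the membrane, was the lowest of all members at a TPM of 10.7 and 10.1, and it kept rank 28 with the length of the longest transcript. Nup35, also called Nup53, a membrane-binding linker, stood at 30.3 and 26.8. Its level is uncertain. The gene Gm4353 carries a copy that matches a Nup35 transcript over 1547 bases at 99.6% identity and was given 67.6 and 56.2 counts, beside 176 and 162 for Nup35, and reads of such copies are split by estimation.

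In the central channel, Nup62 (ENSMUSG00000109511, chromosome 7, 44816088 to 44830812) stood at a TPM of 161 and 155, rank 2 of all members and rank 5 with the length of the longest transcript. Nup62 is the main FG protein of the channel and forms a coiled-coil trimer with Nup54 and Nup58. Nup54 stood at 76.8 and 80.0, and the TPM of Nup62 was 2.09 and 1.94 times that of Nup54. The mean ratio was 1.49 with the longest transcripts as length, against 2.02. Nup62 shares 97 exonic bases with Il4i1 on the same strand, a gene with 4.01 and 17.1 counts, and Nup54 has a processed pseudogene, Gm15790, with 5.5 and 8.11 counts, both few beside the counts of the members.

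All 3 genes of the nuclear basket were expressed. Tpr (ENSMUSG00000006005, chromosome 1, 150392838 to 150449935), the long coiled-coil protein that forms the basket's struts, stood at a TPM of 83.0 and 87.0. It was the member with the most counts, 1505 and 1638. Nup153, the FG protein that anchors Tpr, stood at 39.5 and 46.4, and Nup50, a mobile protein that helps release import cargo, at 56.1 and 50.7. The TPM of Tpr was 2.10 and 1.88 times that of Nup153. The mean ratio was 2.43 with the longest transcripts as length, against 1.99.

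On the cytoplasmic face, Aaas (ENSMUSG00000036678, chromosome 15, 102338252 to 102350771) stood at a TPM of 168 and 169, the highest of all 28 genes. Its protein, aladin, is anchored at the pore by Ndc1. Ranbp2, the giant filament protein that carries SUMO ligase activity and holds the Ran GTPase-activating protein, stood at 33.9 and 33.0. Its counts were 686 and 695, and it ranked 20 of 28 by TPM.

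Nup214, the FG protein that binds the mRNA export helicase, stood at a TPM of 27.4 and 38.4, and its partner Nup88 at 53.3 and 46.1. The Nup88-to-Nup214 ratio of TPM was therefore 1.95 in replicate 1 and 1.2 in replicate 2, as the values of these 2 partners differed in opposite directions between the libraries. In the negative binomial exact test described later, 0 members passed, these 2 included. With the longest transcripts as length the mean ratio was 2.92, against 1.57. The level of Nup88 depends on the length used. Its merged exons measure 8144 bases and its longest transcript 3000, and with the latter its mean TPM rose from 49.7 to 105 and its rank from 16 to 7.

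In the membrane ring, Ndc1, a transmembrane protein needed for pore insertion, stood at a TPM of 105 and 123. Pom121, a membrane protein that acts early in pore assembly in interphase, stood at 33.0 and 41.9, and Nup210, whose large domain lies in the lumen of the envelope, at 12.4 and 15.9. The values in replicate 2 were above those in replicate 1 for all 3, but Nup210 did not pass the test between the libraries (adjusted p = 0.0700, exact binomial test), and in the negative binomial exact test described later 0 of the 3 passed. Ndc1 had 8.45 and 7.75 times the TPM of Nup210 and 3.17 and 2.94 times that of Pom121. With the longest transcripts as length the mean ratios were 5.85 and 3.28, against 8.1 and 3.05. Part of the exons of Pom121, 665 of 5580 bases, is also transcribed on the opposite strand as Nsun5, which had 131 and 127 counts, and the kit used keeps strand while the setting used for counting is not given in the sources used here.

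Long nucleoporin genes tended to have a low TPM. Across the 28 members, Spearman's rho between mean TPM and merged exon length was -0.684 (Pearson's r of the log values -0.731), against -0.194 across 11617 expressed protein-coding genes. With the longest transcript as the length, rho of the TPM given by merged exons was -0.570. Length is also the divisor of the TPM, and in CPM, which scales the count to the library total alone, rho against merged exon length was -0.0698 among members and 0.253 among expressed protein-coding genes. Exceptions were visible on both sides: Tpr has 10496 exonic bases and a TPM of 85.0, while Nup35 has 3366 and a TPM of 28.6.

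**Figure D2:**
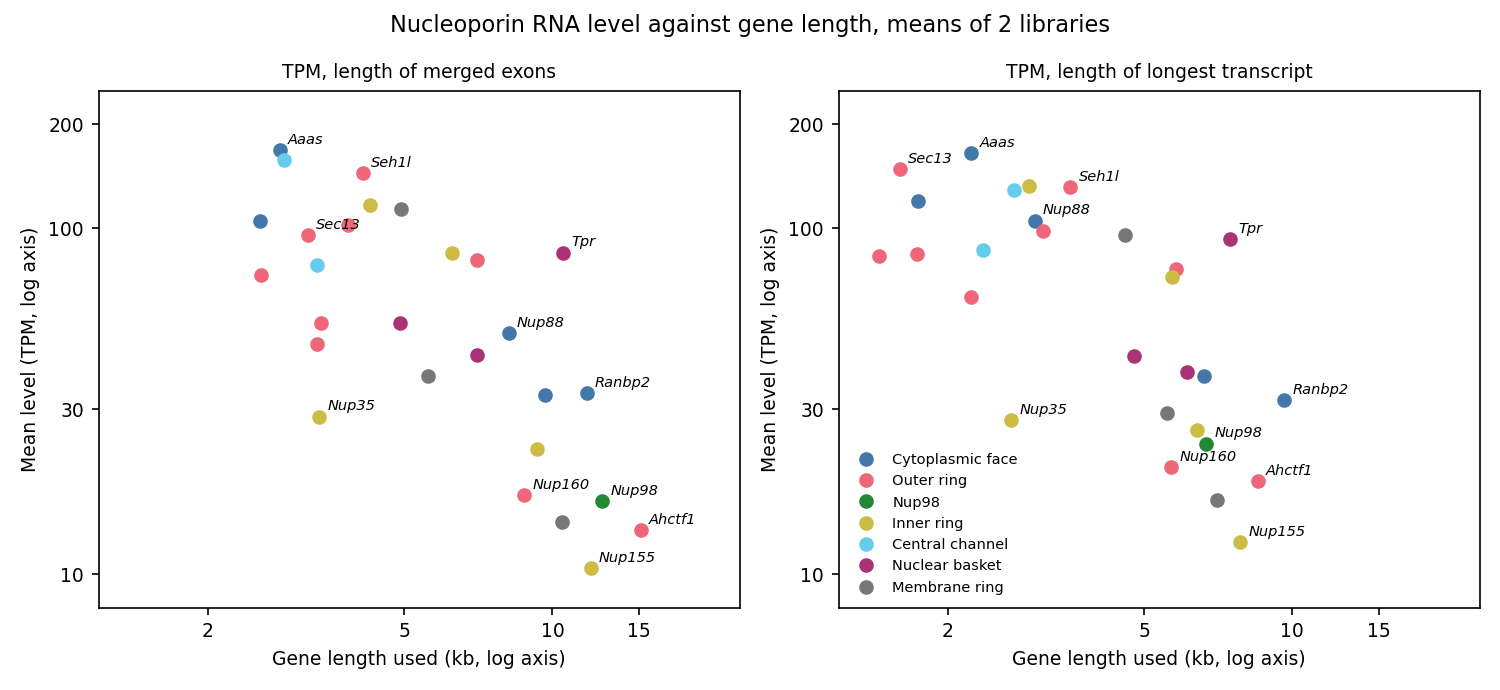
Mean TPM over 2 libraries (log axis) of each nucleoporin gene against the length in kilobases (log axis) by which its count was divided, for merged exons at left and the longest transcript at right; colours mark subcomplexes. The lowest genes, such as Nup155, Ahctf1 and Nup98, are long in both panels, and Nup88 and Sec13 move up when the longest transcript is used. The longest transcript of Sec13 is annotated with 1 exon.

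Only the 2 libraries of the same treatment could be set against each other, so what follows compares libraries, not conditions. Ratios are given as log2 of replicate 2 over replicate 1 after TMM scaling. Of the 28 nucleoporin genes, 10 had a ratio above 1 and 18 below it, and the median log2 ratio was -0.03, against 0.00 over all 12182 genes tested. Of 11147 protein-coding genes tested, 5529 had a ratio above 1 and 5618 below it. Differences of at least 2-fold at an adjusted p under 0.05 were called for 0 of 28 members and for 0.673% of all genes. Without a fold minimum, 3 members were higher in replicate 2 and 1 was lower, against 4.25% and 3.59% of all genes tested. In genes with a mean count in the members' range, 169 to 1572, these shares were 4.70% and 4.16%, and the median size of the log2 ratio was 0.11, as it was among the members.

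The member with the largest ratio was Nup214, with 457 counts in replicate 1 and 665 in replicate 2. Its log2 ratio was 0.47 (SE from counting 0.09), with an adjusted p of 7.96e-06 in the exact binomial test, Benjamini-Hochberg adjusted over 12182 genes. The membrane ring followed: Pom121, with 318 and 420 counts, was higher by 0.33 (SE 0.11, adjusted p = 0.0311, exact binomial test), and Ndc1, with 890 and 1089 counts, by 0.22 (SE 0.07, adjusted p = 0.0139, exact binomial test). Nup88, with 750 and 673 counts, was lower, at -0.22 (SE 0.08, adjusted p = 0.0465, exact binomial test).

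The other 24 genes did not pass the test. Nup210, the third membrane ring gene, had a log2 ratio of 0.35 with 224 and 299 counts (adjusted p = 0.0700, exact binomial test), and Nup85 had -0.33 with 346 and 288 counts (adjusted p = 0.0522, exact binomial test). At the other end, Aaas, Seh1l, Sec13, Nup107 and Ahctf1 had log2 ratios between -0.02 and 0.00. Differences of less than 20% between the libraries were found for 23 of 28 genes. The log2 ratio was below 0 for 8 of 9 outer ring genes, with Seh1l, Sec13 and Nup107 close to 0 among them. It was below 0 for 18 of all 28 members and for 5618 of 11147 protein-coding genes tested. The median log2 ratio of the 9 outer ring genes was -0.04, and 0 of the 9 passed the test.

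This test allows for counting noise alone, and over all genes the counts spread more than that: the chi-square per degree of freedom was 3.55 and the biological coefficient of variation (BCV) of edgeR was 7.31%. With a negative binomial exact test at a preset BCV of 0.1, which is larger than this estimate, 0 members passed an adjusted p of 0.05. Among all 12182 genes tested, 14 passed it. An unadjusted p under 0.05 was found for 1 member in that test and for 10 in the binomial test. The share of all genes with such an unadjusted p is not given here. Granulosa markers summed to 38 counts in replicate 1 and 18 in replicate 2, and surface epithelium markers to 24 and 14; their part in these ratios was not tested. Across members, Spearman's rho between the log2 ratio and the length of the longest transcript was 0.391, against 0.131 over 12177 genes.

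**Figure D3:**
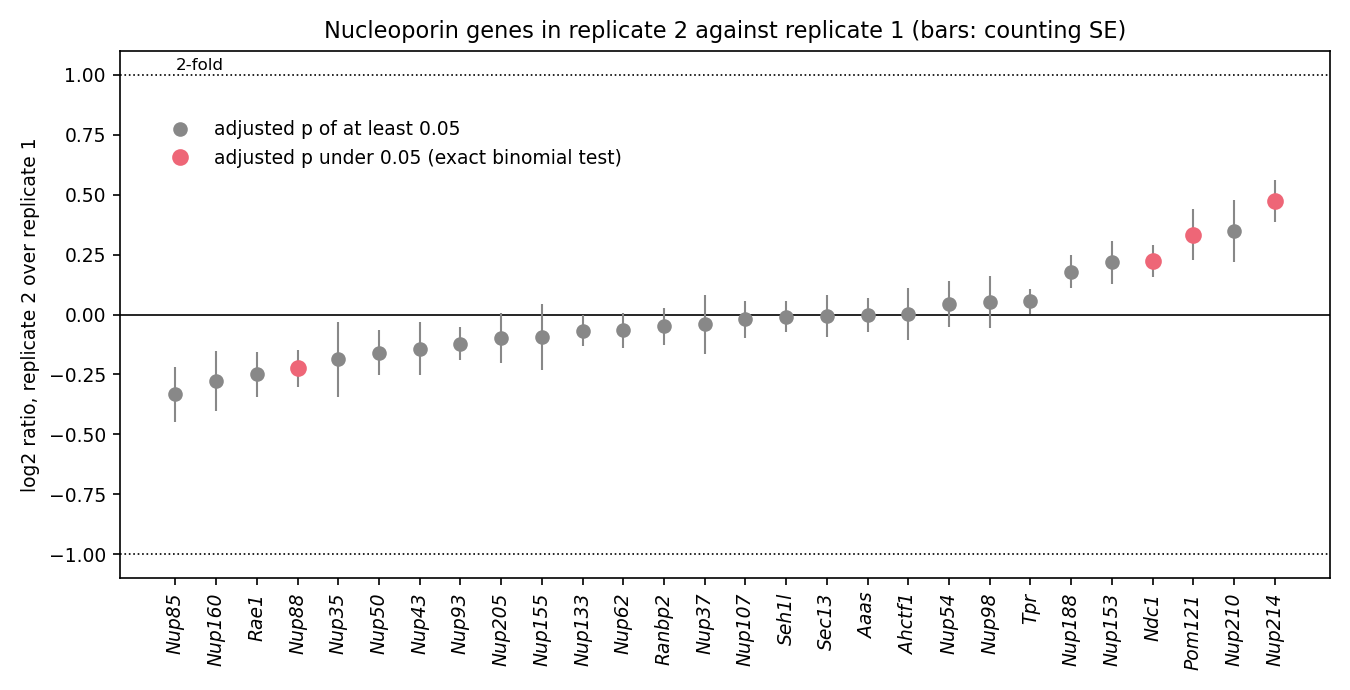
Log2 ratio of replicate 2 over replicate 1 for each nucleoporin gene, in order, with bars of 1 counting SE; red points have an adjusted p under 0.05 in the exact binomial test, and dotted lines mark 2-fold. Nup214, Pom121 and Ndc1 lie above 0 and Nup88 below, and no gene comes near 2-fold.

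The other machinery of nuclear transport was compared by lists of known function. The Ran cycle supplies the direction of transport, and all 8 of its genes were expressed, with TPM medians of 151 and 148. The GTPase Ran stood at a TPM of 463 and 432 and Rcc2, a relative of its exchange factor, at 239 and 227. Ranbp3, a cofactor of export, and Rcc1, the exchange factor on chromatin, were the lowest, at mean TPMs of 35.0 and 31.5. None of the 8 passed the test between the libraries.

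Each of the 18 import receptors was expressed, and their median TPM was 40.7 in each library. The adaptor Kpna2 stood at a TPM of 447 and 444 and Ipo5 at 221 and 206, while Ipo7 and the adaptor Kpna1 were the lowest at mean TPMs of 15.8 and 12.1. Between the libraries, 2 of 18 passed the test with a higher level in replicate 2, Ipo4 (log2 ratio 0.23) and Kpna7 (0.65), and 1 with a lower level, Kpna4 (-0.31); these 3 are named because their values were seen to pass. Over all 12182 genes tested, 4.25% were higher and 3.59% lower, in a test that allows for counting noise only. The 10 export receptors had a median TPM of 31.4 and 31.6. The mRNA export receptor Nxf1 stood at 138 and 152 and Xpo1, the exporter of proteins with leucine-rich signals, at 119 and 124, against mean TPMs of 7.16 for Xpo4 and 4.65 for Nxt2. None of the 10 passed the test between the libraries.

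Partners that dock on the pore were all expressed. TREX-2, the mRNA export complex at the basket, had a median TPM of 88.2 and 83.9 over 6 genes, from Cetn2 at a mean TPM of 172 and Sem1 at 146 to the scaffold Mcm3ap at 52.6 and Pcid2 at 33.7, and 1 of 6, Sem1, was lower in replicate 2 with a log2 ratio of -0.27 (adjusted p = 0.00304, exact binomial test), against 3.59% of all genes tested. The SUMO list had a median TPM of 190 and 179 over 6 genes. Sumo3 and Sumo2 stood at mean TPMs of 314 and 297, and the SUMO proteases Senp2 and Senp1 at 75.9 and 15.8; 1 of 6, Sumo3, passed the test, at a log2 ratio of -0.16 (adjusted p = 0.0122, exact binomial test), against the same 3.59%. The spindle checkpoint proteins Mad1l1 and Mad2l1, which Tpr holds at the pore, stood at mean TPMs of 125 and 42.7 and did not pass it. The 10 genes of the lamina and inner nuclear membrane had a median TPM of 44.7 and 42.4, led by Banf1 at a mean of 381 and Lmna at 96.3, with Sun1 at 22.5 and Sun2 at 14.9 the lowest, and 0 of 10 passed.

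**Figure D4:**
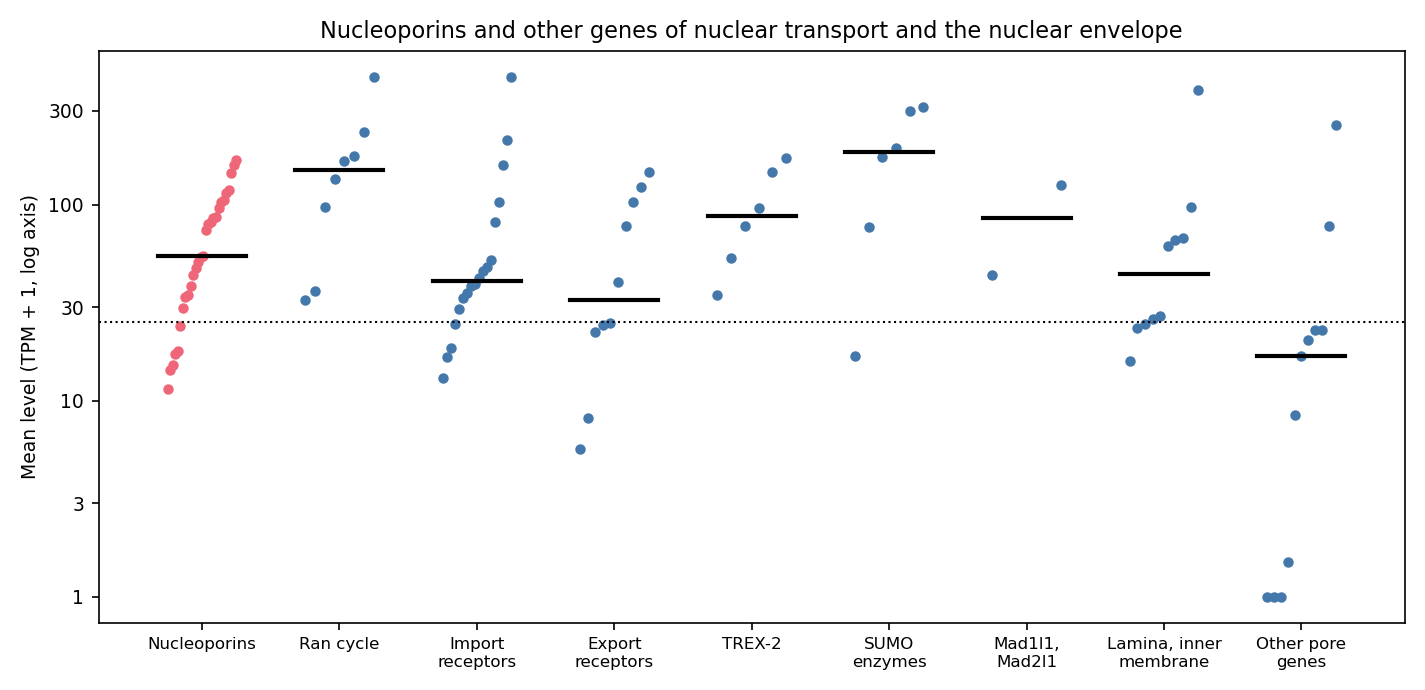
Mean TPM + 1 over 2 libraries (log axis) of each nucleoporin gene (red) and of each gene in 8 other lists (blue); black bars are list medians and the dotted line is the median of expressed protein-coding genes. The nucleoporins range from a TPM of 10.4 to 168, while Ran, Kpna2, Banf1, Sumo3, Ddx19a and Cetn2, the highest genes of their lists, stand above all of them.

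Of 11 pore-associated genes and paralogues outside the rule, 7 were expressed. The helicase Ddx19a, which strips export proteins from mRNA at the cytoplasmic face, stood at a TPM of 239 and 267, and its activator Gle1 at 77.5 and 76.3. The Pom121 relatives Pom121l2 and Pom121l12 were not counted in either library; 0 counts allow a level of up to 0.598 CPM in replicate 1 and 0.569 CPM in replicate 2, which is 3 counts of each total. Other genes of this list were named after their values were seen. Nup62cl, a paralogue of Nup62 on the X chromosome, stood at a TPM of 22.0 and 16.7 with 85 and 67 counts. Nup210l, a paralogue of Nup210, had 6 and 4 counts and a mean TPM of 0.498, and Nupl2 (Nup42), an FG protein of the cytoplasmic face, had 47 and 52 counts and a TPM of 7.22 and 7.69, below every member.

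Nupl1 (ENSMUSG00000063895), the gene of Nup58, had a count of 0 in both libraries, although its channel partners Nup62 and Nup54 were abundant. The annotation used for the authors' counting is not known here. In GENCODE M21 the ID named Nupl1 (chromosome 14, 60184612 to 60251431, minus strand) shares 1756 of its 3602 exonic bases, 48.8%, with an overlapping gene on the same strand, Gm49336 (ENSMUSG00000114797, 60205282 to 60251507). RefSeq places Nupl1, with the synonym Nup58, at 60205284 to 60251479 on the same build, and 2 transcripts of Gm49336 carry RefSeq accessions of Nupl1 in the GENCODE metadata. Gm49336 had 1158 and 1288 counts and a TPM of 52.6 and 56.3, close to the members' median and below Nup62 and Nup54. Its merged exons measure 12748 bases and its longest transcript 4987, and with the latter its mean TPM was 109, which lies between those of Nup62 and Nup54 on that scale, 129 and 86.5. Whether reads of Nup58 were counted for Gm49336 was not tested, and the 0 at Nupl1 alone does not show that Nup58 RNA was missing.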

How the data were processed

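RNA was sequenced from 2 libraries of 1 group. Per the labels' protocols, poly(A) RNA was captured on beads, made into directional libraries and amplified by 12 PCR cycles. Per the submitters' processing notes, the authors used fastp 0.20.0, STAR 2.7.7a and RSEM on GRCm38; the sources used here give no annotation, settings or RSEM version. The authors deposited expected counts, not scaled for depth or length, for each gene. A further 21 columns match no sample here and were not used.

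IDs were matched to GENCODE M21 (53579 of 53832). TPM used merged exon lengths; errors are SDs over 2 libraries or both values. Expressed means a TPM of at least 1 in both. For the libraries against each other, rounded counts were kept by filterByExpr and tested over all genes with a two-sided exact binomial test on TMM-scaled library sizes (edgeR 4.0.16, R 4.3.3), Benjamini-Hochberg adjusted, and called at an adjusted p under 0.05 and 2-fold. Ratios used a prior count of 0.5. The test was checked only on simulated counts with counting noise alone, so the check does not cover counts that spread more than that. Similar transcripts were sought with BLAST 2.17.0 (at least 95% identity over 75 bases), and 21 of 28 members had none in another gene. Promoters are RefSeq sequences of GRCm38.p6. The members, lists and tests were chosen with earlier results of these data known. All members are named, and of other lists the 2 highest and 2 lowest. Alternatives were CPM, the longest transcript of any type as length, totals without mitochondrial genes, a pseudocount of 0.1 in place of 1, a TPM of 5, DESeq2 1.42.0 size factors, library totals, no filter, a 1.5-fold minimum, a negative binomial test and each library left out; counting Nupl1 and Nupl2 as members and adding Gm49336 to Nupl1 were chosen after seeing the data.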

Additional observations from a re-analysis of the deposited data

How the results depend on the processing

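No paired analysis was possible because there is 1 group. All 28 genes were expressed under every alternative run. With Nupl1 and Nupl2 counted the number was 29, because Nupl1 had a count of 0 and was not expressed. On the log2(TPM + 1) scale the members' median was 5.76 (5.64 and 5.87 with 1 library left out), 6.60 as CPM and 6.25 with the longest transcript as length. The gap between the highest and lowest member was 3.89 (3.85 and 3.93), against 3.18 as CPM, 3.63 with the longest transcript and 4.0 with a pseudocount of 0.1. The gap between the highest and lowest subcomplex median was 2.7 (2.67 and 2.73), against 0.99, 2.15 and 2.77 under the same 3 alternatives. By construction, CPM leaves out length, the longest transcript changes the divisor, and a smaller pseudocount widens a gap. The gap between the lists of other transport genes was 3.46 (3.35 and 3.58) and 4.0 with the longest transcript. The 43 single levels were those of the 28 members and the medians of the subcomplexes and lists. Of these, 38 moved by more than 1 SD as CPM, 37 with the longest transcript, 34 without mitochondrial genes in the totals and 13 with the smaller pseudocount. CPM is another unit, and leaving out mitochondrial genes raises all other levels of a library by 1 factor. Those moves were therefore set by construction and do not show a change of order. The count of members past the adjusted p was 4, 5 with library totals, 3 without a filter on low counts and 0 in the negative binomial test; it was 0 at 2-fold and at 1.5-fold. Nup88 no longer passed without the filter, and Nup85 passed with library totals. The negative binomial test allows for more spread by construction, and 14 of all 12182 genes passed it. With Gm49336 added, log2(TPM + 1) of Nupl1 went from 0 to 5.79. With 2 libraries, depth limits ratios to counting SEs of 0.05 to 0.16.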
